A study of Mus musculus with 3 samples.

Results

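Windows of 10 kb that overlap Eif4g2, Ap1g1 and Hspa8, genes hosting small nucleolar RNAs (snoRNAs), were examined in 3 small RNA libraries. These 3 windows, of 119251 in which at least 1 library had a read, were chosen for high levels in spleen and for the part they took of its 24 to 32 nt reads. Both of these values are therefore given as a description. In the coordinates of the files, whose chromosome naming is that of mm9, the Eif4g2 window was chr7:118210001-118220000, the Ap1g1 window chr8:112360001-112370000 and the Hspa8 window chr9:40610001-40620000.

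The study asked which PIWI-interacting RNAs (piRNAs) are bound by MIWI2 (PIWIL4) in mouse blood-forming cells. One library was an RNA immunoprecipitate with a rabbit polyclonal MIWI2 antibody from MEL cells (ATCC TIB-55), an established line of erythroblasts transformed by Friend virus. Another was an immunoprecipitate with the same antibody from unfractionated splenocytes of C57Bl6/J mice aged 10 weeks. The last was not immunoprecipitated: total RNA of C57Bl6/J testis, also at 10 weeks, was resolved in 18% polyacrylamide, and RNA of about 29 nt was recovered from the gel. Each group had 1 library, so nothing below has a replicate check and no p-value is given. Neither an input library nor an immunoprecipitate with a control antibody was analysed here, so the levels do not separate RNA bound by MIWI2 from other RNA in the precipitate, and more cells of a type cannot be told apart from more RNA per cell. The libraries held 823452 (MEL), 692011 (spleen) and 1143785 (testis) mapped reads, of which 287397, 65363 and 1071061 were 24 to 32 nt long.

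snoRNAs of the C/D class guide the 2′-O-methylation of other RNAs, mainly ribosomal RNA. Most mammalian ones lie in introns of protein-coding or noncoding host genes and are trimmed out of the excised intron. They carry a box C near the 5′ end and a box D near the 3′ end, and shorter RNAs cut from the ends of snoRNAs are found in many small RNA libraries. Eif4g2 codes for a translation initiation factor related to eIF4G, Ap1g1 for the gamma-1 subunit of the AP-1 clathrin adaptor, and Hspa8 for the constitutive heat shock cognate protein HSC70. The Snord14 (U14) family is also needed for the processing of 18S ribosomal RNA.

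In the GENCODE M21 annotation of GRCm38, 5 snoRNA genes lie inside these host genes, each on the strand of its host and in an intron of both coding transcripts that span it. They are Gm23262 (ENSMUSG00000088948.1) in Eif4g2, Snord71 (ENSMUSG00000077549.1) in Ap1g1, and Snord14c, Snord14d and Snord14e in Hspa8. An intron of Ap1g1 also holds Gm25321, a small nuclear RNA gene of 102 nt on the other strand. The GENCODE sequences of the snoRNAs are shown because the reads turned out to lie in stretches of about their length. The files use another build, so the reads were not placed on these sequences. Capitals mark GATGA, the core of box C, and CTGA, box D, on the strand of the snoRNA, with overlapping matches included.
Gm23262: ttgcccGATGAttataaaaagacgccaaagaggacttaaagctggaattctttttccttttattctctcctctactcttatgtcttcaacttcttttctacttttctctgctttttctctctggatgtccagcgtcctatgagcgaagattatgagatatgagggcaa
Snord71: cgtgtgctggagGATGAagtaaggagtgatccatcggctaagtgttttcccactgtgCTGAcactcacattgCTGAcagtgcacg
Snord14c: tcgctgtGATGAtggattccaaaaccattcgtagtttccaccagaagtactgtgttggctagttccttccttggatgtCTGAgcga
Snord14d: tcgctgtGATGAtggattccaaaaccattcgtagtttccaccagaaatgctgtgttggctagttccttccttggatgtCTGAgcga
Snord14e: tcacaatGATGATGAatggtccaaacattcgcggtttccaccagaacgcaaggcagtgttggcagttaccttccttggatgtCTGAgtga
GATGA was found in all 5, starting at base 7 of Gm23262, base 13 of Snord71 and base 8 of the Snord14 genes. CTGA was found in 4 of the 5 and was not among the letters of Gm23262. In the Snord14 genes it stood 4 bases before the 3′ end, and the last CTGA of Snord71 stood 9 bases before it. Of the 1507 snoRNA transcripts of all classes and lengths in that release, 31.4% hold GATGA, 79.5% hold CTGA and 29.5% hold both. Snord14c and Snord14d are both 86 nt long and differ at 2 positions. Their first 46 and last 37 bases are identical, so a short read from either end cannot be assigned to one of them.

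The Eif4g2 window was the strongest of the 3. It held 23577 spleen reads, or 34070.3 RPM (reads per 1000000 mapped reads of the library; exact Poisson 95% interval 33637 to 34508). MEL had 67 reads there, or 81.4 RPM (63.1 to 103), and testis had 6, or 5.25 RPM (1.93 to 11.4). The intervals cover counting error only, since PCR copies cannot be told from independent molecules here. Spleen was 419-fold above MEL (counting interval 329.6 to 540.5) and 6495-fold above testis (2984 to 17699.8).

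The Ap1g1 window was read almost entirely in spleen, with 7211 reads or 10420.4 RPM (10181 to 10664). MEL had 1 read there, or 1.21 RPM (0.0307 to 6.77), and testis had 3, or 2.62 RPM (0.541 to 7.67). Neither was above the limit of 3 reads that a count of 0 allows, which is 3.64 RPM in MEL and 2.62 RPM in testis. The ratio of spleen to MEL was 8581 (1539.6 to 338964), and 2860.2 with MEL set at 3 reads. The ratio of spleen to testis was 3973 (1359 to 19269).

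The Hspa8 window had 4926 spleen reads, or 7118 RPM (6921 to 7320.0). MEL had 52 reads, or 63.1 RPM (47.2 to 82.8), which puts spleen 113-fold above it (85.8 to 151). Testis had 1 read, or 0.874 RPM (0.0221 to 4.87), a ratio of 8142 (1461 to 321652), or 2714 with testis set at 3 reads. The testis RNA was cut from the gel at about 29 nt, and 1071061 of its 1143785 reads were 24 to 32 nt long. In spleen 57.7% of the Hspa8 reads were 17 to 19 nt long and 85.8% of the Ap1g1 reads 24 to 26 nt. With reads of 24 to 32 nt alone, scaled to their number in each library, the ratios to testis were 74705 (Eif4g2), 34171 (Ap1g1) and 24891 (Hspa8). Testis had 5, 3 and 1 such reads in these windows. The effect of the size cut on the ratios to testis was not tested beyond such limits on length. In each of the 3 windows spleen was above both other libraries, with intervals that did not overlap, while MEL and testis overlapped in the Ap1g1 window. MEL and testis did not overlap in the Eif4g2 and Hspa8 windows, where MEL was the higher. The share of all windows in which such intervals fail to overlap is not given here, so this is not read as a trait of these windows.

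**Figure D1:**
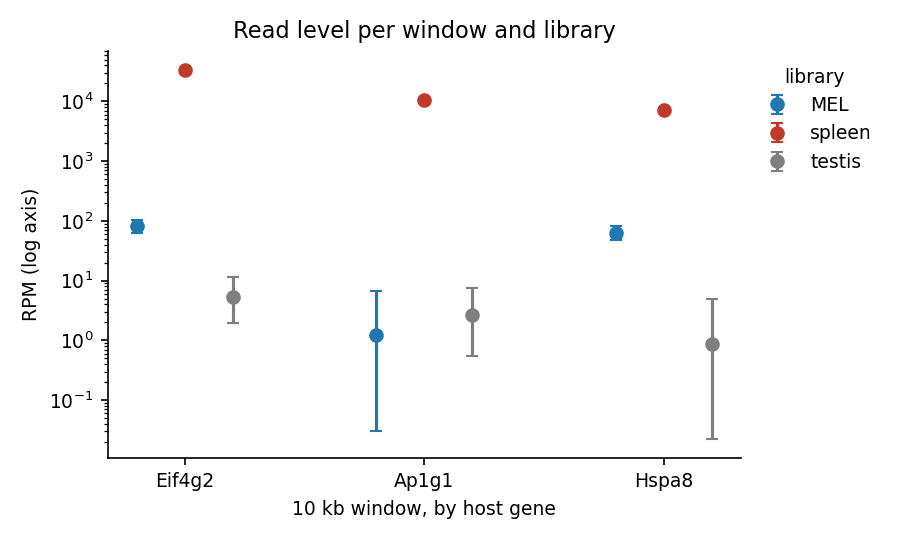
RPM (log axis) in each 10 kb window, by host gene; points are the 1 library of each group and bars are exact Poisson 95% intervals of the read count. Spleen lies between 7118 and 34070.3 RPM in the 3 windows and both other libraries lie at or below 81.4 RPM.

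All 3 windows had at least 100 RPM in spleen and at least 4-fold more than in MEL, as 0.394% of all windows did, and likewise against testis, as 0.685% did. The windows were chosen for this, so nothing is read from it. The level rested on copies of few intervals. In spleen a distinct interval, a pair of start and end, was read 211 times on average in the Eif4g2 window, 267 times in the Ap1g1 window and 69.4 times in the Hspa8 window, against 2.39 times for Eif4g2 and 2.36 times for Hspa8 in MEL. With each interval counted once, the ratio of spleen to MEL was 7.21 (4.73 to 11.3) in the Eif4g2 window and 5.82 (3.56 to 9.86) in the Hspa8 window. In the Ap1g1 window, with 27 spleen intervals and 1 in MEL, it was 48.7 (8.02 to 1993). The libraries also differed in read length, with 9.45% of all spleen reads at 24 to 32 nt. With reads of that range alone, scaled to their number in each library, the ratios to MEL were 1699 for Eif4g2, 607 for Hspa8 and 27507 (4935 to 1086649) for Ap1g1, where MEL had 1 read.

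Of the 65363 spleen reads of 24 to 32 nt, 30570 came from the 3 windows, or 46.8% (exact Clopper-Pearson 95% interval 46.4 to 47.2). In MEL they held 0.0247% (0.0193 to 0.0312) of the reads in that range, and in testis 9 reads. By window the spleen share was 34.9% (34.5 to 35.2) for Eif4g2, 9.57% (9.35 to 9.80) for Ap1g1 and 2.32% (2.21 to 2.44) for Hspa8. No other window had more such reads than any of the 3. The next, chr11:101500001-101510000, had 852 such reads against 1519 in the Hspa8 window, or 1.30% (1.22 to 1.39). Over reads of all lengths the 3 windows ranked 3, 12 and 16 in spleen, and held 5.16% (5.11 to 5.21) of the library. With each interval counted once, the shares of the 24 to 32 nt range fell to 0.655%, 0.113% and 0.203%.

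In spleen nearly all reads of the windows lay in a few short stretches. The 10 windows around each member, 5 on either side, held 11 spleen reads together at Eif4g2, 3 at Ap1g1 and 13 at Hspa8. The highest neighbour in MEL was the window to the left of Hspa8, with 19 reads. Within the windows, reads of all libraries were joined into spans where left ends followed each other within 70 nt, a rule chosen after the reads were seen. Spans with at least 50 spleen reads numbered 1 in the Eif4g2 window, 1 in the Ap1g1 window and 3 in the Hspa8 window. They held 35703 of the 35714 spleen reads in the 3 windows, with 116 of 120 in MEL and 5 of 10 in testis.

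The sizes of these spans were near those of the annotated snoRNAs. The Eif4g2 span ran from 118219574 to 118219741, or 168 nt, and Gm23262 is 168 nt long. The Ap1g1 span ran from 112363199 to 112363275, or 77 nt, and Snord71 is 85 nt long. The Hspa8 spans measured 88, 89 and 84 nt, and Snord14c, Snord14d and Snord14e measure 86, 86 and 90 nt. The most-read left ends of the Hspa8 spans stood 412 nt and 753 nt apart, the same distances as between the annotated starts of Snord14c and Snord14d (412 nt) and of Snord14d and Snord14e (753 nt). Some of these sizes rested on few reads. The sides of the Eif4g2 span were joined by 1 spleen read starting at 118219643, the right side of the Ap1g1 span came from 1 MEL and 3 testis reads, and that of the third Hspa8 span from 1 spleen read. The main spleen stack itself covered 37 nt in the Eif4g2 span and 29 nt in the Ap1g1 span. Only distances and lengths were compared, and no coordinate was carried from one build to the other.

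The middle of the spans was empty or nearly so. The edges of a span were set by its outermost reads, so reads at both edges follow from that rule. In the Eif4g2 span and the first and second Hspa8 spans most spleen reads lay at one end and most MEL reads at the other. The ends of Snord14c and Snord14d are identical, so the first and second Hspa8 spans do not count as separate cases of this. In the Eif4g2 span 23166 of the 23577 spleen reads, or 98.3% (98.1 to 98.4), lay on the right side of the middle. Of the 64 MEL reads in that span 57, or 89.1% (78.8 to 95.5), lay on the left side, as did both testis reads. Spleen was the higher library on that side too, with 410 reads, or 592 RPM (537 to 653), against 69.2 RPM (52.4 to 89.7) in MEL. In the Hspa8 spans 4911 of 4916 spleen reads, or 99.9% (99.8 to 100), lay on the left side. There 43 of 51 MEL reads, or 84.3% (71.4 to 93.0), lay on the right side. In the Ap1g1 span all 7210 spleen reads lay on the left side, and the 1 MEL read and the 3 testis reads lay on the right side, too few to place the MEL share (0% to 97.5% on the left). The third Hspa8 span had no MEL read.

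Over the 3 windows 98.8% (98.7 to 98.9) of the spleen reads in spans lay on the side that was the main one in spleen, against 12.9% (7.42 to 20.4) in MEL, with 116 reads, and 0 of 5 in testis. Those sides were named from the spleen reads, so only the MEL and testis shares were free to vary. In the GRCm38 annotation Ap1g1, Hspa8 and their snoRNAs are on the plus strand and Eif4g2 and Gm23262 on the minus strand. For reads in the sense of the snoRNA, the spleen side would be the 5′ side in all 5 spans. The main MEL side would be the 3′ side in the Eif4g2 span and the first and second Hspa8 spans. In the Ap1g1 span the 1 MEL read, too few to name a main side, would lie on the 3′ side. The files carry no strand, so the sense of the reads was not tested. With each interval counted once the spleen share on its main side was 58.9% in the Eif4g2 span, and the MEL share on the spleen side was 33.3% in the Hspa8 spans. For the 11 MEL reads of 24 to 32 nt in the Hspa8 window that share was 36.4%.

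**Figure D2:**
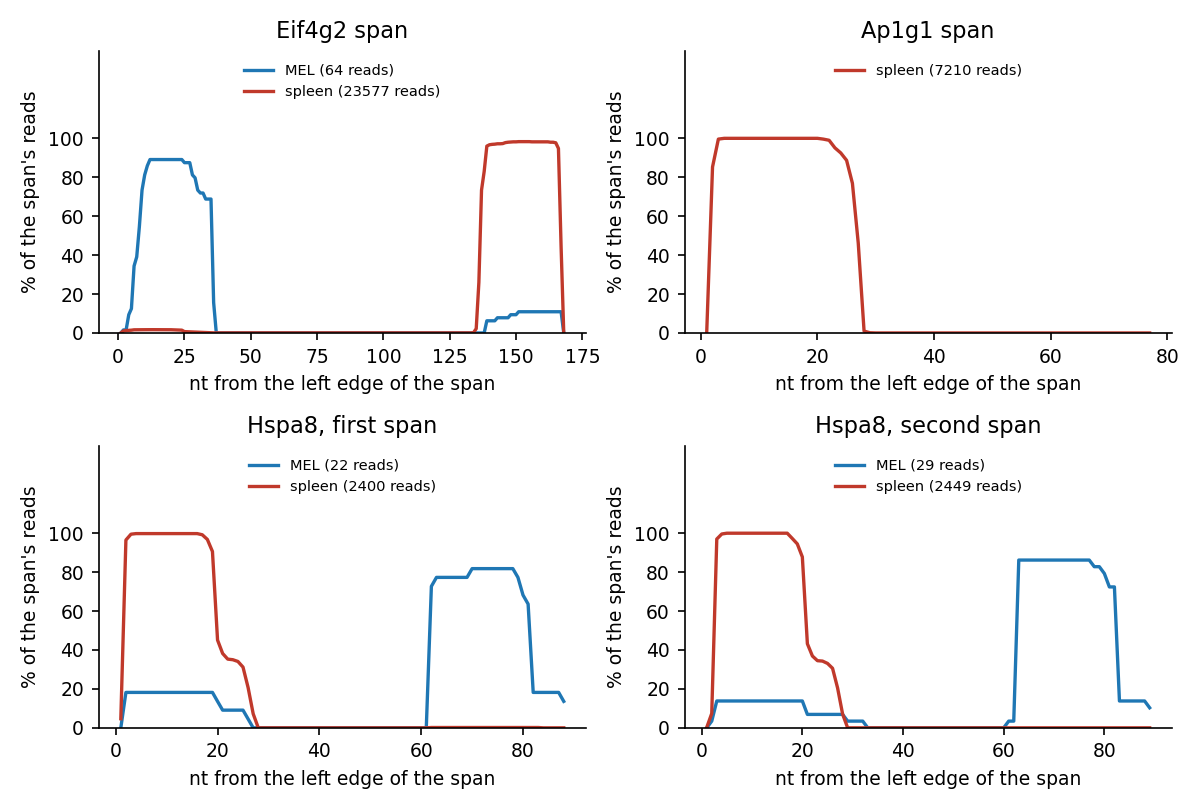
Share of each library's reads in a span (vertical axis, %) that cover each position, by distance in nt from the left edge of the span (horizontal axis), for libraries with at least 10 reads there. The 23577 spleen reads of the Eif4g2 span pile up at its right edge and the 64 MEL reads at its left edge; in both Hspa8 spans drawn the spleen reads lie at the left edge and MEL reads mostly at the right edge.

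In the Eif4g2 span the spleen reads stopped at 2 neighbouring positions on the right and began at several on the left. The most-read intervals were 118219710 to 118219739 (30 nt, 5711 reads), 118219710 to 118219740 (31 nt, 5099 reads) and 118219709 to 118219739 (31 nt, 3093 reads). Right ends at 118219739 and 118219740 together took 96.4% of the 23166 reads of this stack. The 2 most-read neighbouring left ends took 72.5%, and 4 left ends were needed to reach 95%. In MEL all 7 reads of this stack ended at 118219740, most often as 29 nt reads.

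The other end of the Eif4g2 span differed between the immunoprecipitates in its ends and lengths. MEL had 57 reads there, most often 28 nt long, with 59.6% of them ending at 118219608 and the most-read left end, 118219579, taking 24.6%. Spleen had 410 reads there, most often 23 nt long, with 59.0% starting at 118219575 and 42.9% ending at 118219597. So MEL reads shared a right end more than a left end, and spleen reads the reverse. Both testis reads there started at 118219582.

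In the Ap1g1 span the fixed side was the left. Spleen reads started at 112363200 in 85.1% of 7210 reads, and at this base or the next in 99.5%. The most-read right end, 112363225, took 45.3%, and 5 right ends were needed to reach 95%. The leading intervals from 112363200 ended at 112363225 (26 nt, 2799 reads), 112363224 (25 nt, 1898 reads) and 112363223 (24 nt, 720 reads). The MEL read and 2 of the 3 testis reads started at 112363244, where no spleen read did.

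The first and second Hspa8 spans had nearly the same ends. In the first, 91.9% of the 2396 spleen reads of the left stack started at 40611666, and in the second 89.6% of 2449 started at 40612078. The 2 most-read neighbouring right ends took 52.5% and 51.3%, against 96.6% and 96.8% for left ends. From the main left end, reads of 18 nt numbered 1011 in the first span and 1019 in the second, those of 25 nt 293 and 307, and those of 24 nt 244 and 231. The near-equal numbers concern stretches that are identical in Snord14c and Snord14d, and how the authors placed reads with several matches is not given in the sources used here, so the counts of the first and second spans are not separate measurements. In the third span, whose distance matched Snord14e, spleen had 66 reads on the left end 40612831, most often 26 nt long, and MEL and testis had none. Of those 66 reads 60.6% were 24 to 32 nt long, against 30.8% and 30% in the left stacks of the first and second spans.

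MEL reads in the Hspa8 window were most often 20 nt long and clustered on the right side of the spans. Of 52 reads, 24 started at 40612138 and 16 at 40611726. The last 37 bases of Snord14c and Snord14d are identical, so these MEL counts are not separate measurements either. Left ends of the main spleen stacks were rare in MEL, with 4 reads at 40611666 and 3 at 40612078. The only testis read, of 30 nt, lay between the spans.

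**Figure D3:**
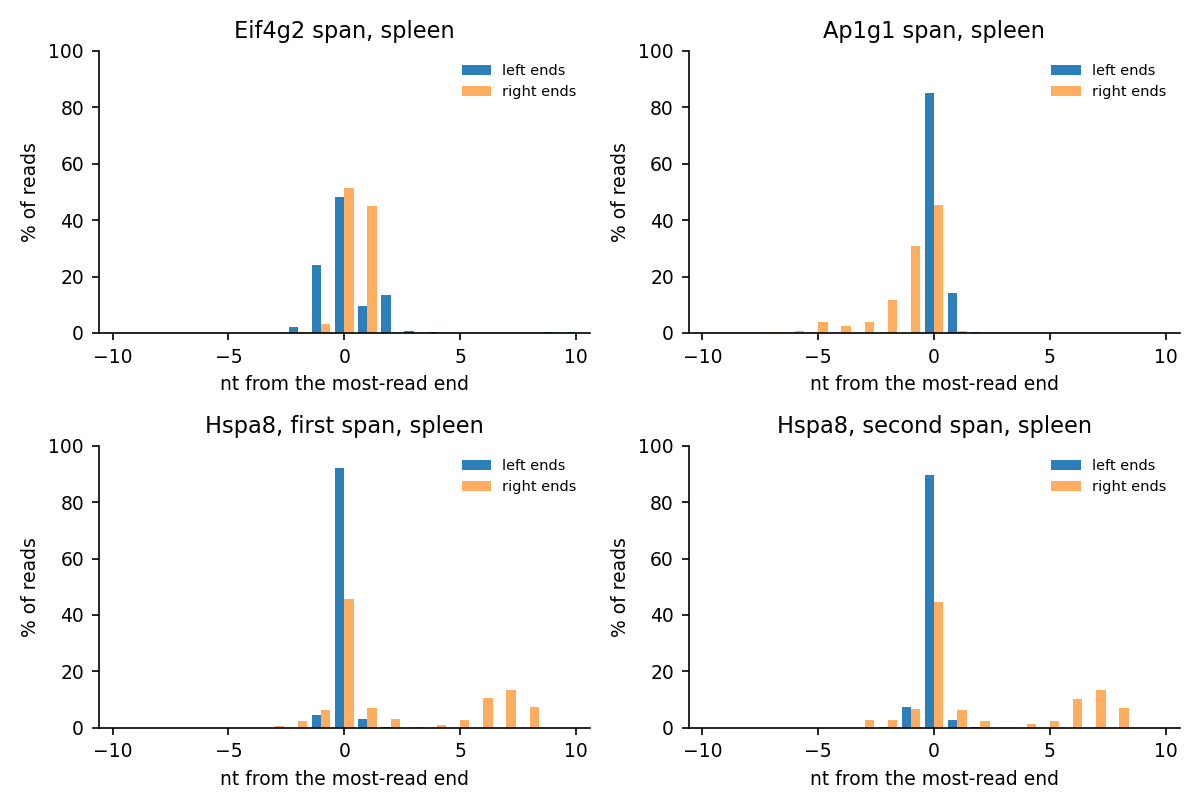
Share of the spleen reads of the main stack in each span (vertical axis, %) by the distance of their left and right ends from the most-read left or right end (horizontal axis, nt). Right ends are the narrower set in the Eif4g2 span, where 2 positions hold 96.4%, and left ends in the Ap1g1 span, where 2 positions hold 99.5%, and in the Hspa8 spans.

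Fixed ends were not particular to these windows. In the 67 other spleen windows with at least 100 reads of 24 to 32 nt, the most-read left end took a median of 27.4% of those reads (5.83% to 97.9%). It took 49.0% in the Eif4g2 window, 87.6% in the Ap1g1 window and 45.5% in the Hspa8 window, whose reads lay mainly in its first and second spans. Of the 67 windows 14, 5 and 15 reached these shares. The most-read right end, the narrower side in Eif4g2, took a median of 29.4% (7.34% to 97.7%) in the 67 windows, and 51.6% in the Eif4g2 window, a share that 8 of the 67 reached. In the Ap1g1 and Hspa8 windows it took 52.2% and 21.4%, which 8 and 40 reached. The number of distinct left ends was 18, 4 and 11, against a median of 20 and a lowest value of 5 in the others.

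The members differed in read length, though Ap1g1 and Hspa8 shared a class at 24 to 26 nt. In spleen the Eif4g2 reads were most often 31 nt long, and 87.8% (87.4 to 88.3) were 29 to 32 nt. The Ap1g1 reads were most often 26 nt long, 85.8% (84.9 to 86.6) were 24 to 26 nt, and 0 of 7211 were 29 to 32 nt, which allows up to 0.0511%. The Hspa8 reads fell into separate classes: 57.7% (56.3 to 59.1) were 17 to 19 nt, most often 18 nt, and 30.8% (29.5 to 32.1) were 24 to 26 nt, while 8.06% were of the lengths between. Of the 4926 Hspa8 reads 0 were 29 to 32 nt, which allows up to 0.0749%. The range of 24 to 32 nt thus held 96.7% (96.4 to 96.9) of the Eif4g2 reads, 86.8% (86.0 to 87.5) of the Ap1g1 reads and 30.8% of the Hspa8 reads. In MEL the most frequent length was 28 nt for Eif4g2 and 20 nt for Hspa8, against 31 nt and 18 nt in spleen. These values compare different ends of the spans, since most MEL reads lay opposite most spleen reads. In the left stack of the Eif4g2 span MEL reads were most often 28 nt long and spleen reads 23 nt. In its right stack they were most often 29 nt (7 MEL reads) and 31 nt. The left stacks of the first and second Hspa8 spans had 4 MEL reads each, too few to compare lengths.

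**Figure D4:**
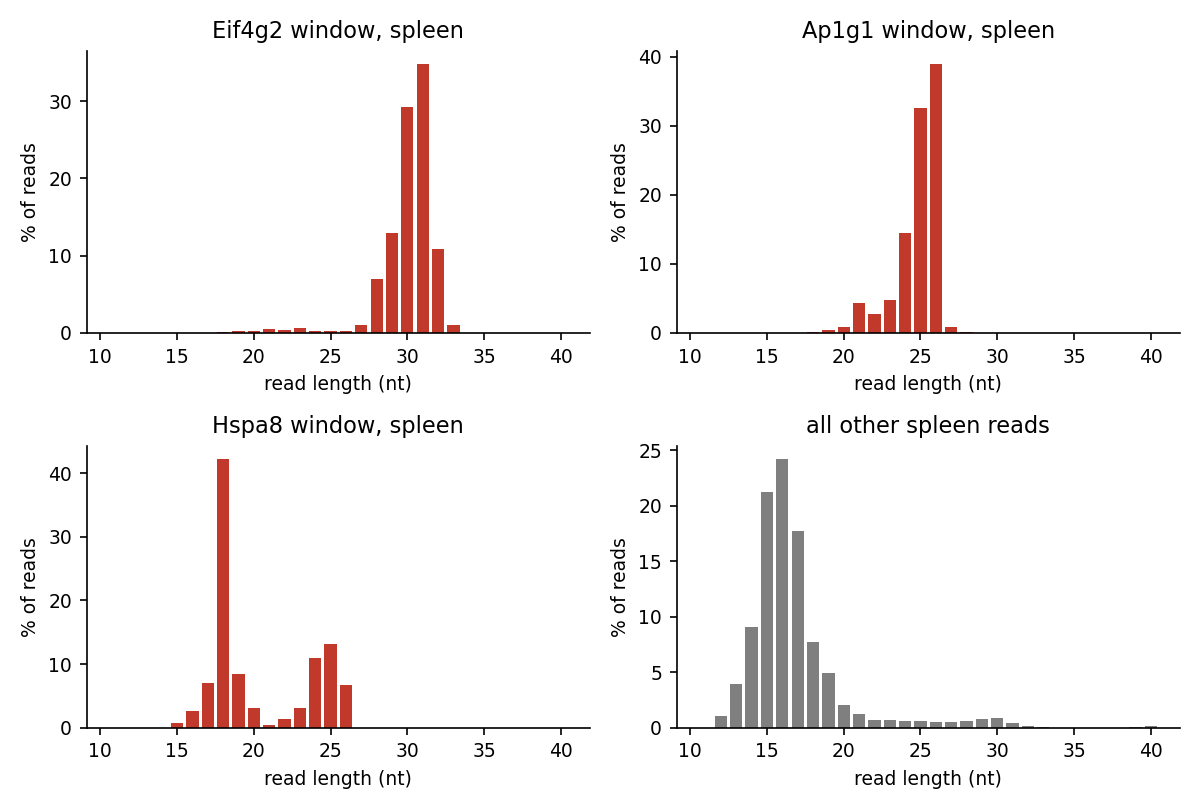
Read lengths (horizontal axis, nt) as a share of the spleen reads (vertical axis, %) in each window and in the rest of the spleen library. Eif4g2 reads peak at 31 nt, Ap1g1 reads at 26 nt, Hspa8 reads at 18 nt and again at 25 nt, and the rest of the library lies mostly below 20 nt.

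Within the piRNA range the Eif4g2 window supplied spleen reads mainly at 29 to 32 nt, and the Ap1g1 and Hspa8 windows both at 24 to 26 nt. Spleen had 35738 reads of 29 to 32 nt, and the Eif4g2 window supplied 20712 of them, or 58.0% (57.4 to 58.5). The Ap1g1 window held 31.1% (30.5 to 31.8) and the Hspa8 window 7.63% (7.27 to 8.01) of the reads of 24 to 26 nt, of which spleen had 19874. Over the whole library, reads of 29 to 32 nt made up 54.7% (54.3 to 55.1) of the 24 to 32 nt range, whose most frequent length was 30 nt. Without the Eif4g2 window that share was 35.3% (34.8 to 35.8), and the most frequent length was 25 nt. Without all 3 windows it was 43.2% (42.7 to 43.7), most often 30 nt, and reads of 24 to 32 nt made up 5.30% (5.25 to 5.36) of the remaining spleen reads in place of 9.45% (9.38 to 9.51).

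**Figure D5:**
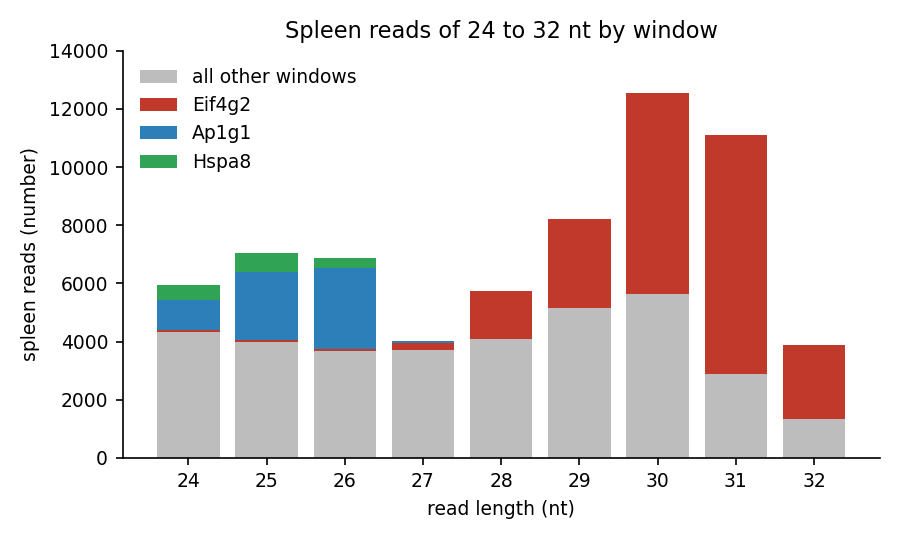
Number of spleen reads (vertical axis) at each length from 24 to 32 nt (horizontal axis), stacked by window. The Eif4g2 window makes up most of the reads of 30 to 32 nt, and the Ap1g1 and Hspa8 windows add reads of 24 to 26 nt.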

How the data were processed

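The deposited files list mapped small RNA reads of 3 libraries, with chromosome, start and end on each line and copies on repeated lines; they hold no strand, sequence, name, count or score. Mapping used Bowtie 0.12.7, according to the submitters' processing notes. The build was not given in the sources used here, nor were the trimming, the mapping options and the handling of reads with several matches. Starts were taken as counted from 0, and positions are printed counted from 1. Reads were counted by left end in 10 kb windows and scaled to 1000000 reads. Ratios have exact conditional 95% intervals, shares Clopper-Pearson intervals and levels Poisson intervals. Window calls and spans were tested on simulated data. The windows, all gene lists and the rule for named positions (left ends with at least 1% of a window's reads, at most 5 per library, leading intervals added) were chosen with earlier results of these data known. The fixed list of other snoRNA host genes was not used, since no annotation of the files' build was used. Names, strands, lengths, distances and sequences of snoRNAs came from GENCODE M21 (GRCm38). Python 3.11.15, numpy 2.4.6, pandas 2.3.3 and scipy 1.17.1 were used.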

Additional observations from a re-analysis of the deposited data

How the results depend on the processing

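Spleen stayed above MEL and testis in all 3 windows under every alternative tried. Among 97 values computed again, 63 left the counting interval of the reported value. Many alternatives change the reads counted and the total they are scaled to, so that interval belongs to another quantity. How much of each move came from this was not tested. With each distinct interval counted once, the folds over MEL were 7.21 (Eif4g2), 16.2 (Ap1g1; 48.7 unless MEL, with 1 interval, is set at 3) and 5.82 (Hspa8) and over testis 56.3, 27.1 and 71.3 (Hspa8; 214 unless testis, with 1, is set at 3). The windows then took 0.655%, 0.113% and 0.203% of the spleen intervals of 24 to 32 nt, that range held 51.8%, 37.0% and 25.4% of the intervals of each window, and the shares on the spleen side were 58.9% (Eif4g2, spleen), 97.0% (Hspa8, spleen) and 33.3% (Hspa8, MEL). With 24 to 32 nt reads alone the folds over MEL were 1699 (Eif4g2) and 607 (Hspa8) and over testis 74705 (Eif4g2) and 34171 (Ap1g1), and the shares on the spleen side 99.3%, 100% and 36.4%. With 26 to 31 nt reads the fold over MEL was 1561 (Eif4g2), the folds over testis 135187 (Eif4g2) and 19315 (Ap1g1) with testis, which had 2 reads in each, set at 3 reads, or 202780.0 and 28973 as read, and the shares 41.5%, 5.93% and 0.693%. With reads of at least 18 nt the folds were 1041 (Eif4g2 over MEL), 23999 (Eif4g2 over testis) and 263 (Hspa8 over MEL). Without the 5 other windows with most reads the shares were 36.9%, 10.1% and 2.46%. The share on the most-read left end was 98.1%, 100% and 48.6% with left ends within 2 nt joined, and 51.6%, 52.2% and 21.4% for right ends. The settings for sides and for leaving out member windows were chosen after seeing the data; the share of 29 to 32 nt among the spleen reads of 24 to 32 nt was 35.3% without the Eif4g2 window and 43.2% without all 3. No paired analysis was possible because each group has 1 library. Depth limits the MEL and testis values: 3 reads stand for 3.64 RPM in MEL and 2.62 RPM in testis.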

Other observations

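Of the 6 testis reads in the Eif4g2 window, 4 lay outside the snoRNA-sized span, on 4 separate left ends, at lengths of 28 to 32 nt. Of the 67 MEL reads there, 3 lay outside it, 2 of them on the left end 118217876.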
